A study of Mus musculus with 12 samples.

Results

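The kinetochore and mitotic checkpoint genes are 43 of the 45792 genes in the deposited tables, chosen by symbol from a list of centromere, kinetochore, spindle checkpoint and passenger complex genes, and they were described across 12 RNA-seq libraries of mouse neural stem cells (NSCs). Of these members, 42 were found by symbol and Sgo1, which the tables carry under an older symbol, by its gene identifier. All 43 passed the filter on low counts, among 15706 genes tested. The cells were primary forebrain NSCs at passage 2, one newborn pup to a culture, grown in serum-free medium with EGF, FGF, insulin, transferrin, sodium selenite and B-27. The 3 groups of 4 libraries were WT C57BL/6J NSCs (replicates 9 to 12), NSCs from Ncf1-/- mice, which lack a cytosolic subunit of the NADPH oxidase Nox2 in every cell and were backcrossed to C57BL/6J, given vehicle (replicates 1 to 4), and Ncf1-/- NSCs given recombinant mouse Igfbp2 (replicates 5 to 8), a secreted protein that binds insulin-like growth factors. The GEO labels call the vehicle cultures untreated and give the Igfbp2 dose as 100 ng/ml, while the methods of the study state a lower one. Igfbp2 was added 48 h after plating and RNA was taken 48 h later. No WT culture received Igfbp2.

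The libraries held 18201622 to 34086554 expected counts. Levels below are CPM, the counts of a gene scaled to a common library size with TMM factors. Ncf1 itself stood at 0.0478 to 0.223 CPM in the 12 libraries and failed the filter, so this gene gave no check of the genotype. One of the sample sheets in the code of the study lists WT replicate 12 as apocynin-treated, against its GEO label and the other sheets, and counts without it are given beside the results. The 4 Y-linked genes measured summed to 105 to 118 CPM in the vehicle-treated libraries and in WT replicates 9 to 11, to 7.80 to 9.18 CPM in the Igfbp2-treated libraries and to 6.46 CPM in WT replicate 12. A sample sheet of the study makes vehicle-treated replicates 1, 2, 3 and 4 and Igfbp2-treated replicates 5, 6, 7 and 8, in this order, cultures of the same 4 preparations, each from 1 animal, and the Y-linked sums do not match 1 animal in any of these pairs. The NSC markers Nes, Sox2, Vim, Fabp7, Pax6, Hes5 and Msi1 all passed the filter, and of these 7 the vehicle-treated Ncf1-/- cultures had 2 higher and 4 lower. The 8 oligodendrocyte markers were all lower in vehicle-treated Ncf1-/- NSCs, as were 5 of 7 neuron and 6 of 7 astrocyte markers. The oligodendrocyte markers summed to 9871, 10200, 1970 and 5888 CPM in WT replicates 9 to 12 and to 236 to 360 CPM in the Ncf1-/- libraries. Microglia markers summed to at most 2.13 CPM in any library.

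The kinetochore is the protein machine that ties each chromosome to spindle microtubules. It is built on nucleosomes that carry the histone variant CENP-A, which Hjurp and the Mis18 proteins load, and a constitutive centromere network of CENP proteins links this chromatin to the outer Ndc80 and Mis12 complexes, which bind microtubules. Kinetochores that are not attached feed the spindle checkpoint, in which Ttk, Bub1, Bub1b, Bub3 and Mad2l1 hold back Cdc20 and so the onset of anaphase, while the chromosomal passenger complex of Aurkb, Incenp, Birc5 and Cdca8 corrects faulty attachments. Most of these genes are transcribed in dividing cells and peak between S phase and mitosis, and NSCs are a dividing cell type.

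Nearly the whole set was more abundant where Ncf1 was missing. Of the 43 members, 42 were higher in the vehicle-treated Ncf1-/- libraries at an adjusted p under 0.05 (quasi-likelihood test in edgeR), none was lower, and Mis12 did not pass, against 28.9% of all genes tested that were called higher and 28.2% that were called lower. The median member log2 fold change was 2.04, where the median of all genes was 0.015. In 42 members every vehicle-treated library lay above every WT library, which was so for 26.1% of all genes. The lowest vehicle-treated library stood at 0.912 to 4.40 times the highest WT library, with a median over members of 2.63. In bulk RNA a larger share of dividing cells and more transcript in each dividing cell cannot be told apart. The summed level of the 43 genes was 961, 983, 642 and 664 CPM in WT replicates 9 to 12 and 2139, 2247, 2143 and 2373 CPM in the vehicle-treated replicates 1 to 4. The 4 WT libraries were the uneven group, since replicates 9 and 10 were the highest pair in 40 of 43 members and the highest WT library exceeded the lowest by a median of 1.85 times, against 1.16 times among the vehicle-treated libraries. The 3 proliferation markers Mki67, Top2a and Pcna followed the same order in WT, at a sum of 436, 451, 249 and 255 CPM. Replicates 11 and 12, which were low in members, also differed from 9 and 10 in oligodendrocyte markers (above) and in the sum of the NSC markers. That sum was 2421, 2520, 7955 and 3723 CPM. Most of it was Vim, at 626, 664, 4569 and 1528 CPM, and Fabp7, at 1017, 988, 2178 and 1294 CPM. Sox2 was at 382, 383, 371 and 408 CPM. Nes stood at 118 CPM in replicate 12, no higher than in replicates 9 and 10, at 120 and 158 CPM. The part of the cell makeup in the member levels was not tested. Without WT replicate 12 the same number of members, 42, was called higher.

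**Figure D1:**
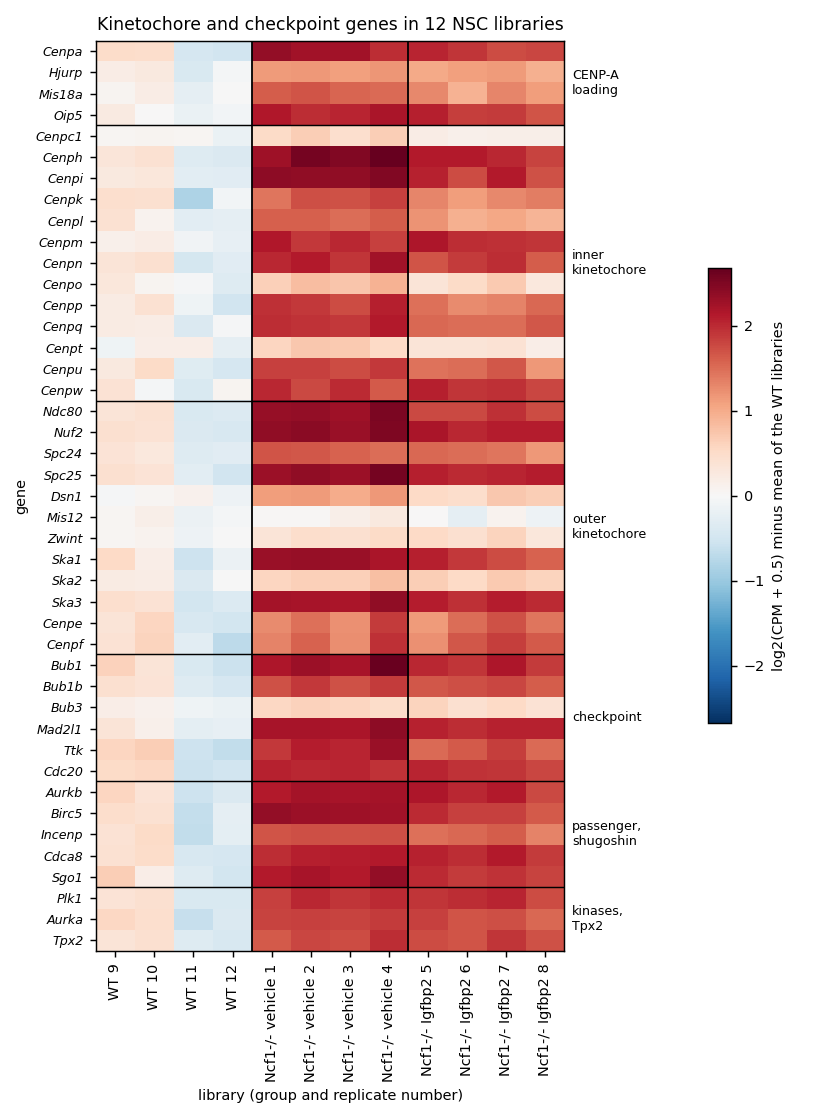
Heat map of log2(CPM + 0.5) for the 43 genes (rows, by role) in each of the 12 libraries (columns, by group and replicate number), each row set relative to the mean of its 4 WT libraries. The Ncf1-/- columns are red in nearly every row, the rows of Mis12, Zwint, Bub3, Cenpc1 and Cenpt are the palest, and WT replicates 11 and 12 are below the WT mean in most rows.

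On the TPM scale, which divides by transcript length, the most abundant members in vehicle-treated Ncf1-/- NSCs were Zwint, a linker of the outer kinetochore, at 86.2 ± 12.5 TPM (SD, n = 4), and Cenpa at 77.1 ± 4.71 TPM. They were followed by Cdc20 at 47.8 ± 3.24 TPM and Birc5 at 47.2 ± 5.12 TPM, which did not differ beyond their spread. Cenpu had the lowest mean, at 2.32 ± 0.455 TPM, a range that overlapped that of Cenpk at 3.47 ± 0.765 TPM. The order was another in WT, with Zwint at 60.1 ± 3.24 TPM, Bub3 at 21.3 ± 1.22 TPM, Hjurp at 18.7 ± 2.5 TPM and Cenpa at 16.3 ± 4.92 TPM, where the ranges of mean ± SD of Bub3 and Hjurp overlapped, as did those of Hjurp and Cenpa. Cenpu again had the lowest mean, at 0.485 ± 0.108 TPM, and its range overlapped those of Ska1 (0.615 ± 0.178 TPM) and Cenpk (0.83 ± 0.356 TPM).

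The 4 genes of CENP-A and its loading were all higher in vehicle-treated Ncf1-/- NSCs, with a median log2 fold change of 1.92. Oip5, the Mis18-beta subunit, had the largest difference of the 4: its level was 2.59, 2.16, 1.81 and 2.0 CPM in WT and 11.2, 9.77, 10.3 and 11.5 CPM in the vehicle-treated cultures. These groups were far apart, at a log2 fold change of 2.32 ± 0.14 (SE), adjusted p = 7.27e-08 (edgeR), although Oip5 shares exon bases with Nusap1 on the other strand and the strand used in counting is not given in the sources used here. Cenpa was at 28.1, 27.4, 14.4 and 13.6 CPM in WT and at 103, 95.0, 95.5 and 79.5 CPM in the vehicle-treated libraries, a log2 fold change of 2.16. Hjurp, the chaperone that deposits CENP-A, moved least in this group. It stood at 96.2, 100, 62.8 and 81.4 CPM in WT and at 186, 188, 181 and 190 CPM in vehicle-treated Ncf1-/- NSCs, a log2 fold change of 1.13 ± 0.12 with adjusted p = 5.98e-06 and no overlap of the groups.

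The inner kinetochore held both the largest increase of the set and several of the smallest. All 13 members were called higher, with log2 fold changes from 0.58 to 2.75 and a median of 2.09. Cenph (chr13:100759674-100775899, minus strand, GRCm38), which joins Cenpi and Cenpk in the complex that recruits outer components, was at 2.41, 2.59, 1.35 and 1.28 CPM in WT and at 10.7, 13.2, 12.4 and 14.4 CPM in the vehicle-treated libraries. That 6.73-fold difference was a log2 fold change of 2.75 ± 0.21, adjusted p = 3.92e-07, and its lowest Ncf1-/- library was well above its highest WT library. Its partners Cenpi and Cenpk had log2 fold changes of 2.5 and 1.97. A further complex of the network was uneven: Cenpp, Cenpq and Cenpu had 2.24, 2.05 and 2.09, and Cenpo had 0.82. Cenpc1, the scaffold that binds CENP-A nucleosomes directly, changed least of the 13. It was at 26.1, 26.2, 26.0 and 21.9 CPM in WT and at 35.8, 40.0, 34.4 and 39.8 CPM in vehicle-treated NSCs, which was 1.5-fold (log2 0.58 ± 0.08, adjusted p = 3.80e-05). Cenpt, the other DNA-proximal scaffold that reaches the Ndc80 complex, was near it at a log2 fold change of 0.63, so both genes that bridge chromatin to the outer kinetochore lay at the low end.

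Of the 12 outer kinetochore genes 11 were called higher, with a median log2 fold change of 1.55. The subunits of the Ndc80 complex, which grips the microtubule, were at 2.42 for Ndc80, 2.40 for Nuf2, 2.41 for Spc25 and 1.63 for Spc24. The Ska complex, which follows microtubule ends, was uneven: Ska1 and Ska3 had log2 fold changes of 2.49 and 2.31, and Ska2 had 0.65. Ska1 levels were 3.18, 2.38, 1.23 and 1.78 CPM in WT and 12, 12.2, 12.1 and 11 CPM in the vehicle-treated libraries (log2 2.49 ± 0.23, adjusted p = 1.49e-06). Mis12 (chr11:71019611-71027371, plus strand), the subunit that names the complex linking Cenpc1 to Ndc80, was the exception of the whole set. Its levels of 25.1, 27.1, 21.8 and 23.4 CPM in WT and 24.8, 24.8, 27.1 and 29.2 CPM in vehicle-treated NSCs overlapped, and the log2 fold change was 0.12 ± 0.10 with adjusted p = 0.309. Scaled by library totals instead of TMM it was 0.30 with adjusted p = 0.0263. Its counts were fractional in all 12 libraries, as were those of Cenpa, Cenpi, Spc24, Ska2, Cenpf and Birc5, which were called higher. Part of the Mis12 reads was thus shared with other features, and Mis12 overlaps Derl2 on the other strand. Dsn1, of the same complex, was called higher at 1.13. The mitotic motor Cenpe and the large corona protein Cenpf were at 1.43 and 1.47.

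All 6 spindle checkpoint genes were higher, at a median log2 fold change of 2.0. Bub1, the kinase that gathers the checkpoint at kinetochores, was at 12.7, 10.5, 6.02 and 5.29 CPM in WT and at 38.2, 41.5, 39.2 and 53.0 CPM in vehicle-treated Ncf1-/- NSCs, a log2 fold change of 2.32 ± 0.23 with adjusted p = 2.96e-06. Mad2l1, Ttk and Cdc20 followed with 2.29, 2.07 and 1.94, and Bub1b with 1.77. Bub3, the shared partner of Bub1 and Bub1b, had the smallest difference. Its levels were 63.3, 60.3, 51.5 and 49.2 CPM in WT and 82.2, 85.8, 83.5 and 78.9 CPM in vehicle-treated NSCs, which did not overlap (log2 0.56 ± 0.09, adjusted p = 0.000143).

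The passenger complex and Sgo1, which protects centromeric cohesion, moved within a narrow band. Their 5 log2 fold changes ran from 1.65 to 2.27, all called higher. Birc5, the survivin subunit, was at 15.5, 14.9, 6.94 and 9.35 CPM in WT and at 58.4, 55.8, 55.5 and 54.8 CPM in the vehicle-treated libraries (log2 2.27 ± 0.20, adjusted p = 1.33e-06). Incenp, the scaffold that activates Aurkb, was at 42.4, 46.9, 20.5 and 27.2 CPM and at 106, 108, 106 and 108 CPM, a log2 fold change of 1.65 ± 0.20 with adjusted p = 1.61e-05. The spindle kinases and Tpx2 were close to each other as well. Plk1, which drives mitotic entry and kinetochore attachment, was at 30.5, 31.9, 17.7 and 17.7 CPM in WT and at 85.3, 96.5, 89.5 and 96.0 CPM in vehicle-treated NSCs (log2 1.91 ± 0.18, adjusted p = 1.94e-06). Tpx2, the spindle factor that activates Aurka, was at 55.0, 58.6, 33.7 and 31.7 CPM and at 136, 149, 145 and 170 CPM (log2 1.75 ± 0.18, adjusted p = 3.91e-06). Each of these genes was more even among Ncf1-/- than among WT libraries.

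**Figure D2:**
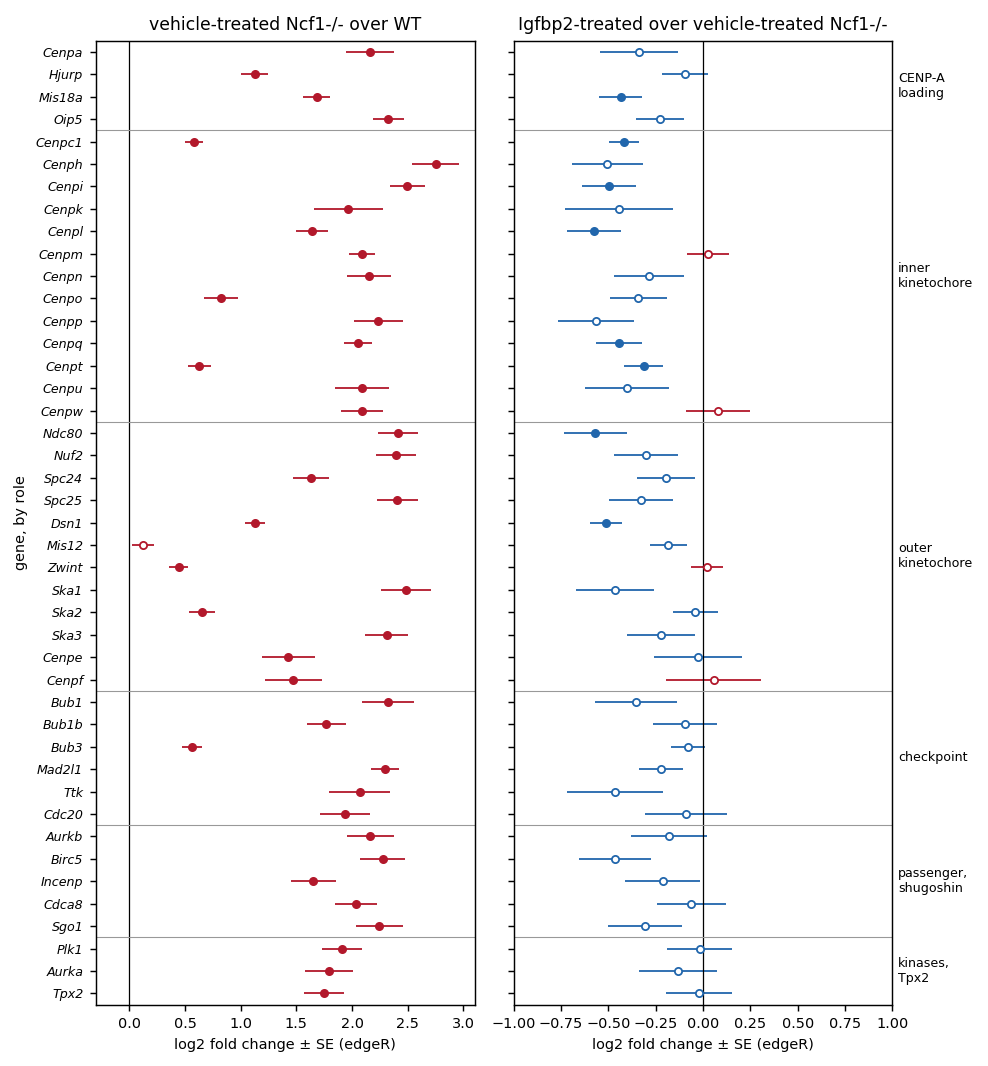
Log2 fold change with its SE from edgeR for the 43 genes, grouped by role, for vehicle-treated Ncf1-/- over WT (left, n = 4 and 4) and Igfbp2-treated over vehicle-treated Ncf1-/- NSCs (right, n = 4 and 4). Filled points had an adjusted p under 0.05. On the left the points lie between 0.12 and 2.75 and only Mis12 is open, and on the right they lie between -0.57 and 0.08 with 8 filled.

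The promoters of the set were read next, because its members rose together and mitotic genes often carry a cell cycle genes homology region (CHR), a short element near the start site bound by MuvB complexes, with upstream CCAAT boxes bound by NF-Y. RefSeq promoter windows (GRCm38.p6) of 300 bases, 250 before the start and 50 from it on, were at hand for 38 members in 41 windows, and were searched on both strands for the CHR letters TTTGAA or TTTAAA and for CCAAT. CHR letters stood in 23 of 41 windows (56.1%), against 27.6% of all 32851 windows, and CCAAT in 31 of 41 (75.6%), against 37.4%. Counted from the first transcribed base as 0, CHR letters began in the bases from 0 to 49 in 31.7% of the member windows and in 3.37% of all windows, and from -50 to -1 in 19.5% and 5.22%. In the 50-base steps further upstream the shares ran from 0% to 9.76% of member windows and from 5.38% to 7.10% of all windows. CCAAT stood in 36.6% of member windows both from -100 to -51, against 12.5% of all windows, and from -50 to -1, against 9.03%. Its shares were 19.5% and 8.4% from -150 to -101, and 17.1% and 5.22% from 0 to 49. In 2 member windows, those of Cenpw and Cdca8, the CHR and CCAAT letters shared a base. The member windows were richer in G and C, at a median of 58.7% against 52.7%. The stretches below are shown because they hold the CHR letters whose first base lies nearest the start. Further CHR letters outside a stretch are not shown, such as TTTAAA at -17 in Cenpa. They are given first for 8 members with log2 fold changes from 1.43 to 2.42 and then for 3 of the least changed. Each stretch is 30 bases long, 5′ to 3′ along the gene, with the CHR letters in capitals (TTTGAA reads TTCAAA where it lies on the other strand).
Cenpa, chr5:30666890-30666919, plus strand: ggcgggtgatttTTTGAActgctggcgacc
Ndc80, chr17:71526818-71526847, minus strand: gcgggcggaaacTTTAAAaTTCAAAccgcc
Cenpe, chr3:135212565-135212594, plus strand: ccttgaggacatTTTAAActtaaaggcggg
Bub1b, chr2:118598231-118598260, plus strand: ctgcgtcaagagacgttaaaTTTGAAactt
Ttk, chr9:83834684-83834713, plus strand: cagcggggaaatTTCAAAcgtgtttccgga
Cdc20, chr4:118437344-118437373, minus strand: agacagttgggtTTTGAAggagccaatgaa
Plk1, chr7:122159394-122159423, plus strand: gcgggtttgtatTTTAAAtccccgcggcca
Aurka, chr2:172370536-172370565, minus strand: tttgactcctatTTTAAAaggagaaccttt
Cenpc1, chr5:86065563-86065592, minus strand: agagccggagtcTTTAAAaaacgccaatta
Zwint, chr10:72654819-72654848, plus strand: gaggtgacgtcaTTTAAAgtcctgcccact
Bub3, chr7:131560315-131560344, plus strand: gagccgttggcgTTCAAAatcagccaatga
The last 3 genes had log2 fold changes of 0.58, 0.44 and 0.56 in vehicle-treated Ncf1-/- over WT. CHR letters near the start were thus also present in members that changed little. For Bub3 this depends on the start site: it has 2 windows, with the letters at -43 in the window shown and at -167 in the other.

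**Figure D3:**
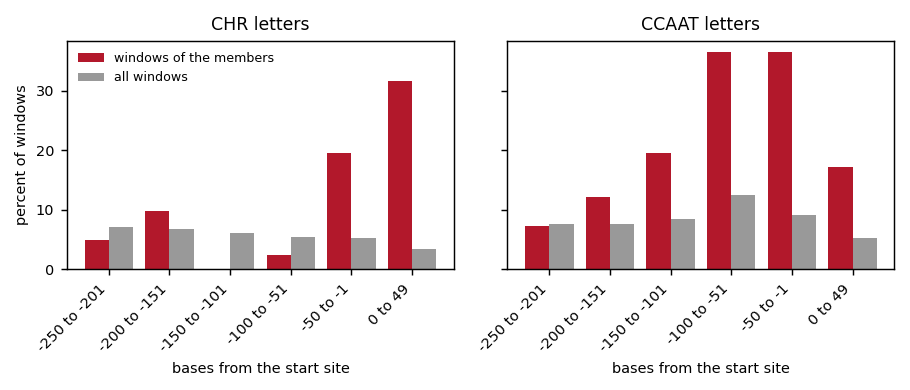
Share of promoter windows (percent) in which CHR letters (left) or CCAAT (right) began in each 50-base step from the start site, for the 41 windows of the members and for all 32851 windows. CHR letters are more frequent in member windows within 50 bases on either side of the start, and CCAAT in each step from 150 bases upstream to 49 bases past the start.

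Longer stretches upstream are shown for 2 members with these letters and for the 2 members that rose most, which have none there. Each is 150 bases with no annotated exon, with CCAAT and CHR letters of either strand in capitals.
Ttk, chr9:83834539-83834688, plus strand: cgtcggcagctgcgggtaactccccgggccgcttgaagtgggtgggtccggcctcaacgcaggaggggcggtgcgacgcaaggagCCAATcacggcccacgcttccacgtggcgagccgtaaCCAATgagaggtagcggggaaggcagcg
Cdc20, chr4:118437353-118437502, minus strand: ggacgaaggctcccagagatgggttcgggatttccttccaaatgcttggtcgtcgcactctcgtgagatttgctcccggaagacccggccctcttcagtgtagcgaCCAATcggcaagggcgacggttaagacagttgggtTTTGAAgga
Cenph, chr13:100775900-100776049, minus strand: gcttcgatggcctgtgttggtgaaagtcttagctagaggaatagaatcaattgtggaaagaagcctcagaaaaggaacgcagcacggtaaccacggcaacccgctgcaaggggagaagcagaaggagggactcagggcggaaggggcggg
Cenpi, chrX:134307934-134308083, plus strand: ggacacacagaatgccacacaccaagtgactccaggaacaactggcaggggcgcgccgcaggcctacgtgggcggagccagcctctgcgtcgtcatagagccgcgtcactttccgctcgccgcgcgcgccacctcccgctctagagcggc
The stretches of Cenph and Cenpi hold neither set of letters, which says only that the letters are not in these bases. Both windows hold CCAAT past the start, at 31 in Cenph and at 7 in Cenpi. Over the 38 members with a window, the 19 with CHR letters from -50 to 49 had a median log2 fold change of 1.94 in vehicle-treated Ncf1-/- over WT, and the 19 without had 2.09. Of all genes tested that have a window, the 662 with CHR letters there had a median of 0.23 and the 10036 without had 0.014.

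Fewer members differed between the Igfbp2-treated and vehicle-treated cultures, and by smaller amounts. Of the 8 genes called, 7 were of the inner or outer kinetochore, roles that hold 13 and 12 of the 43 members. This share was not tested against the other roles. Compared with vehicle-treated Ncf1-/- NSCs, 8 of 43 members were lower at an adjusted p under 0.05 and none was higher, against 10.7% of all genes called lower and 14.2% called higher. The 8 were Mis18a, Cenpc1, Cenpi, Cenpl, Cenpq, Cenpt, Ndc80 and Dsn1. The median log2 fold change of the members was -0.29, against 0.04 over all genes, and in 22 members all 4 treated libraries lay below all 4 vehicle-treated ones, which was so for 14.7% of all genes. The summed level of the set was 2009, 1986, 2136 and 1870 CPM in treated replicates 5 to 8, so the ranges of the sums nearly met (2139 CPM in the lowest vehicle-treated library). With the stated preparation as a block, a pairing that the Y-linked sums do not bear out (above), 26 members were called lower and none higher, against 17% of all genes. The fit without the block to the same 8 libraries also called 26 (18.3% of all genes), of which 25 were in both, so the added calls came with leaving out the WT libraries. Leaving out 1 library changed the 8 calls to 4 without vehicle-treated replicate 2, to 5 without vehicle-treated replicate 1 or 4 or Igfbp2-treated replicate 6 or 8, to 12 without WT replicate 11 and to 10 without WT replicate 12. The scaling bears on the size: with library totals 29 members were called lower (33.5% of all genes), the median of the members was -0.56 and that of all genes -0.23 (648 genes higher and 5258 lower, in place of 2238 and 1685), so that the members lay 0.32 below all genes under either scaling. Short structural RNAs made up 56.0% to 60.3% of TPM in vehicle-treated and 62.1% to 72.3% in treated libraries. The Y-linked genes (above) separated these groups fully, in each of the 4 pairs, so treatment and this difference cannot be told apart. Neuron markers summed to 483 to 547 CPM in vehicle-treated and 432 to 460 CPM in treated libraries. Of the 7, Tubb3 and Dcx were called lower at -0.61 and -0.83, while Stmn2 and Rbfox3, at 0.90 and 0.20, were not called. Map2 made up most of the neuron sums, with means of 480 and 425 CPM, and was not called (adjusted p = 0.158, edgeR). Endothelial markers summed to 4.23 to 8.13 CPM and 11.2 to 16.1 CPM, with Flt1 called higher among 3 tested. Flt1 made up most of these sums, with means of 3.98 and 10.1 CPM. Of the 7 NSC markers, Hes5 was called lower at -1.48 and Msi1 higher at 0.42, and the other 5 were not called. Mesenchymal markers, of which 3 of 4 tested were called higher with Igfbp2, summed to 8.15 to 10.6 CPM in vehicle-treated and 19.7 to 23.4 CPM in treated libraries. Most of each sum was Acta2, the gene not called, with means of 6.14 and 13.3 CPM (adjusted p = 0.134, edgeR). The part of these marker differences in the member values was not tested.

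Among the 8 called members, Cenpc1, Cenpl and Dsn1 were called in each of the 22 other fits. Dsn1 (chr2:156995265-157007154, minus strand), which anchors the Mis12 complex at the inner kinetochore, was at 26.4, 27.0, 24.4 and 27.4 CPM in vehicle-treated and at 17.6, 16.8, 20.2 and 19.2 CPM in treated NSCs. It fell by 0.51 ± 0.09 on the log2 scale, adjusted p = 0.00202 (edgeR), while WT stood lower still at 11.7, 12.5, 13.0 and 10.9 CPM. Cenpc1 (chr5:86012024-86065583, minus strand) was at 28.6, 27.4, 28.1 and 28.1 CPM in treated NSCs, below all vehicle-treated libraries given above. It fell by 0.42 ± 0.08, adjusted p = 0.00345. Cenpl, the partner of Cenpn in reading CENP-A, was at 7.73, 6.15, 4.62 and 4.79 CPM in WT, at 18.4, 18.4, 16.9 and 18.6 CPM in vehicle-treated and at 13.7, 11.4, 12.3 and 11.2 CPM in treated NSCs, with adjusted p = 0.0122 for the treatment.

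Of the other 5, Cenpi was at 6.18, 6.42, 4.13 and 4.06 CPM in WT, at 29.1, 28.2, 28.6 and 30.7 CPM in vehicle-treated and at 22.9, 18.3, 23.7 and 17.8 CPM in treated NSCs, and fell by 0.50 ± 0.14 with treatment (adjusted p = 0.0252). Cenpq was at 7.32, 7.29, 4.67 and 6.07 CPM, at 26.1, 25.2, 24.5 and 28.7 CPM, and at 19.0, 18.6, 18.6 and 20.7 CPM in the same order, and fell by 0.44 ± 0.12 (adjusted p = 0.02). Ndc80 was at 8.6, 9.01, 4.88 and 5.07 CPM, at 35.3, 36.0, 34.0 and 40.6 CPM, and at 23.8, 23.9, 27.3 and 23.3 CPM, and fell by 0.57 ± 0.17 (adjusted p = 0.0258). These 3 genes kept treated levels several times above WT, with no overlap among the 3 groups. Mis18a, whose product licenses the centromere for CENP-A, was at 5.50, 5.99, 4.30 and 5.12 CPM, at 17.0, 17.9, 16.2 and 15.8 CPM, and at 13.3, 10.4, 13.7 and 11.9 CPM, and fell by 0.44 ± 0.12 (adjusted p = 0.0174). Cenpt was at 14.9, 18.2, 18.2 and 13.6 CPM, at 24.1, 26.7, 26.3 and 23.5 CPM, and at 20.7, 20.6, 21.2 and 18.4 CPM, and fell by 0.31 ± 0.10 (adjusted p = 0.0403), the smallest difference of the 8. Cenpt overlaps Tsnaxip1 and Cenpq overlaps Mut on the other strand.

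**Figure D4:**
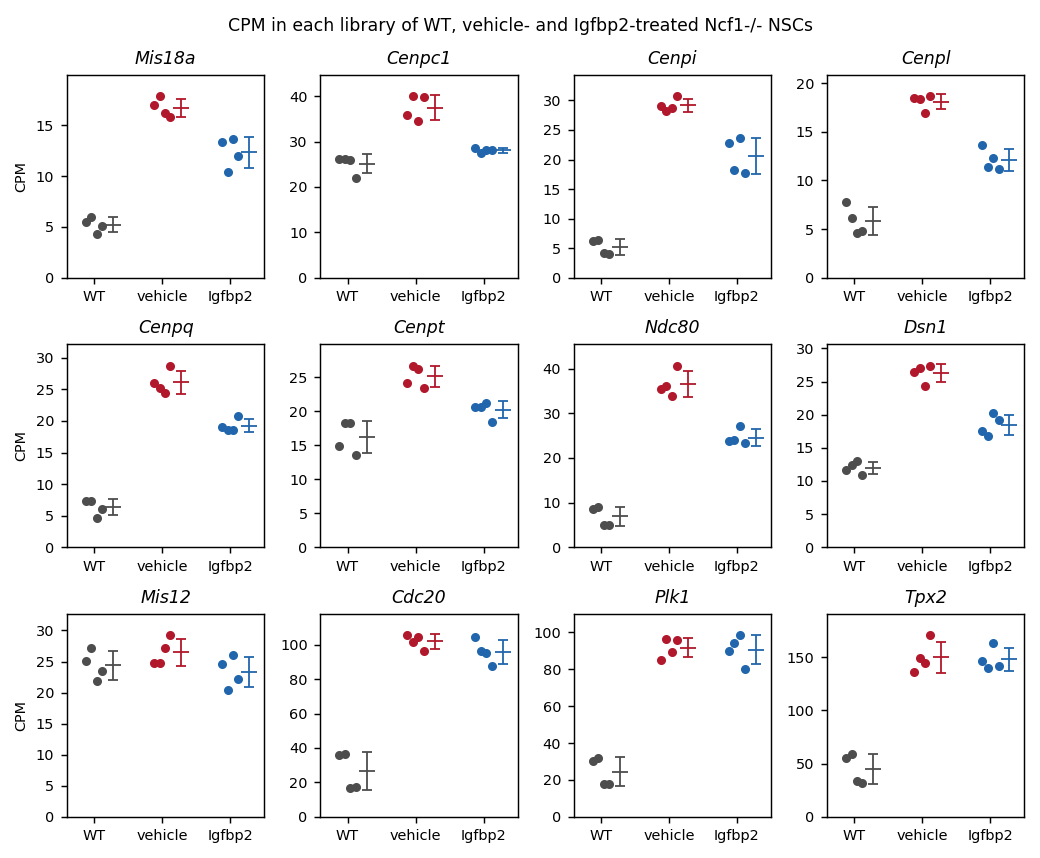
CPM of 12 members in each library (points) with mean and SD (bars, n = 4) in WT, vehicle-treated and Igfbp2-treated Ncf1-/- NSCs, on axes that start at 0. The first 8 genes are those called lower with Igfbp2, with treated points below all vehicle-treated points, while the treated and vehicle-treated points of Mis12, Cdc20, Plk1 and Tpx2 overlap.

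By role, 5 of 13 inner kinetochore genes were called lower with Igfbp2 (median -0.42), 2 of 12 outer kinetochore genes (median -0.21), 1 of 4 genes of CENP-A loading (median -0.28), and none of the 6 checkpoint genes (median -0.16), the 5 passenger and shugoshin genes (median -0.21) or the 3 of the kinase group (median -0.02). With the block these counts were 10, 8, 2, 3, 3 and 0. The kinase group overlapped in every member. Plk1 was at 90.1, 94.1, 98.4 and 80.1 CPM in treated NSCs, a log2 fold change of -0.02 ± 0.17 from vehicle (adjusted p = 0.952), and Tpx2 at 146, 140, 163 and 142 CPM, a log2 fold change of -0.02 ± 0.17 (adjusted p = 0.943). Cdc20 and Cdca8 were at -0.09 and -0.06, and neither was called with the block. Cenpm, Cenpw, Zwint and Cenpf had values just above 0, at 0.03, 0.08, 0.02 and 0.06, which turned negative with library totals, and none of them was called with either scaling of the counts. Cenpp, Cenph and Birc5 were at -0.57, -0.51 and -0.47 with adjusted p = 0.0544, 0.0638 and 0.0913, and passed with the block. The 19 members with CHR letters from -50 to 49 had a median of -0.10 with treatment, with 2 called, and the 19 members without had -0.40, with 6 called. Over all genes with a window the order was the other way, with a median of -0.04 and 77 of 662 called lower where the letters were present and 0.06 and 911 of 10036 where they were not. These bounds were set after the motif positions were seen. With CHR letters anywhere in the window, the 22 members that held them had a median of -0.18, with 4 called. The 16 members without had -0.38, with 4 called. None of these differences was tested.

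Even with Igfbp2 most of the set stayed above WT. Of 43 members, 41 were higher in Igfbp2-treated Ncf1-/- than in WT NSCs, none was lower and Mis12 and Cenpc1 did not pass, against 31.6% of all genes called higher and 30.8% called lower. In 41 members the 2 groups did not overlap, all treated libraries being the higher, which was so for 27.8% of all genes. The median log2 fold change was 1.69, beside 2.04 for vehicle over WT, a pair of values that share the WT libraries. Cenpc1 was 0.16 ± 0.08 above WT (adjusted p = 0.0918), although each treated library lay above each WT library. Mis12, at 24.6, 20.5, 26.0 and 22.1 CPM in treated NSCs, was at -0.06 ± 0.10 (adjusted p = 0.6). Cenpt and Zwint were the next lowest, at 0.31 and 0.46. The 2 largest were Cenph at 2.25 and Cenpw at 2.17, a histone-fold protein of the inner kinetochore that was not called between the treatments. Without WT replicate 12, 39 members were called higher, and with Tukey's comparisons on TPM, the test of the study, 20 were. With these comparisons and with limma on TPM the values of Cenpc1, Cenpt and Dsn1 turned negative, and that of Cenpo with limma on TPM, and none of these negative values passed.

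Genes with neighbouring functions were read from lists of their own. Of 17 other kinetochore and checkpoint genes, 14 were higher with vehicle-treated Ncf1-/- NSCs set against WT, at a median log2 fold change of 1.46, none was lower and 3 did not pass. Zwilch and Kntc1, which with Zw10 form the complex that recruits dynein, were at 2.36 and 1.55, and Zw10 was at 0.72. Trip13, a disassembler of the checkpoint complex, was at 2.21, Spdl1 at 2.12, Knl1, the platform for Bub proteins, at 1.98, and Pmf1 and Nsl1, of the Mis12 complex, at 1.93 and 1.46. Haspin, Sgo2a, Bora and Cenps had 1.87, 1.78, 1.42 and 1.16, and Itgb3bp and Cenpx 0.80 and 0.55. The 3 that did not pass were Mad1l1 (-0.14, adjusted p = 0.492), the partner that anchors Mad2l1, Mad2l1bp (0.30, adjusted p = 0.0622) and Cenpb (0.16, adjusted p = 0.0939), a centromeric DNA-binding protein. With Igfbp2, 3 of the 17 were lower than with vehicle and none was higher: Zw10 fell by 0.64, Cenps by 0.54 and Zwilch by 0.49 on the log2 scale.

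All 8 condensin genes were higher in vehicle-treated Ncf1-/- NSCs, from Ncapd3 at 0.35 to Ncapg at 2.20, and none was called with Igfbp2. Cohesin was divided, with 7 of 16 higher, 1 lower and a median of 0.13. Esco2, the acetyltransferase of S phase, was at 2.62, while the cohesin loader subunit Mau2 was at -0.67. The anaphase-promoting complex (APC/C) and its regulators, the targets of the checkpoint, had 10 of 18 higher and 1 lower at a median of 0.26, from Anapc2 at -0.26 to the inhibitor Fbxo5 at 1.79. Of the 10 MuvB, B-Myb and FoxM1 genes, whose products are parts or partners of the complexes that bind CHR elements, 6 were higher and 1 lower. Rbl1 was the highest at 1.84, and Lin52, at -0.23 with adjusted p = 0.0744, the lowest. The 3 proliferation markers were all called higher, from Mki67 at 1.28 to Top2a at 1.94, and none was called with Igfbp2. The medians of the members (2.04) and of the other kinetochore genes (1.46) thus stood beside 1.77 for condensin and 1.46 for the proliferation markers, differences that were not tested.

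**Figure D5:**
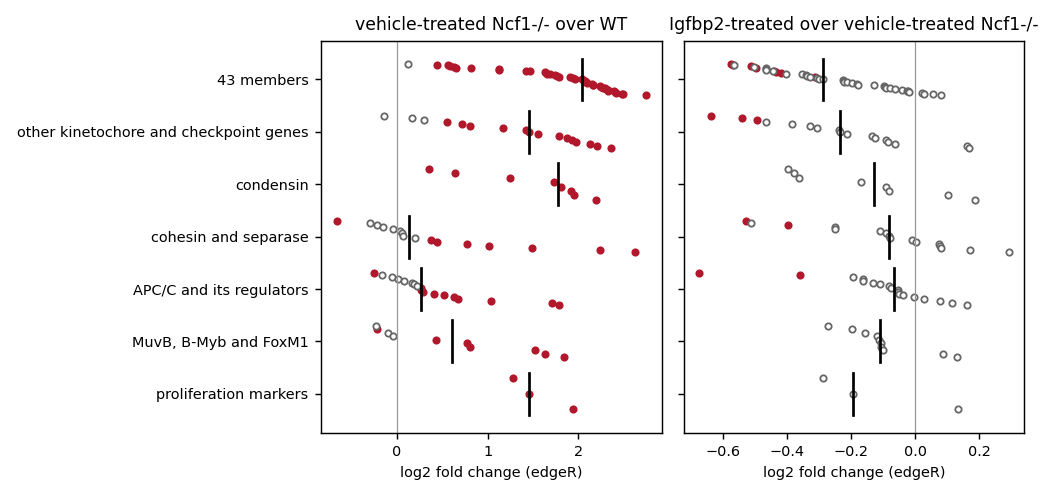
Log2 fold changes of the 43 members and of 6 related gene lists for vehicle-treated Ncf1-/- over WT (left) and Igfbp2-treated over vehicle-treated Ncf1-/- NSCs (right). Points are genes, filled where the adjusted p was under 0.05, and black bars are list medians, which on the left are 2.04 for the members, 1.77 for condensin and 0.13 for cohesin and separase.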

How the data were processed

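RNA was depleted of ribosomal RNA and sequenced by the authors, who aligned the reads to GRCm38 with Bowtie2 and RSEM, per the labels (versions not given in the sources used here). The deposited files give for each gene an RSEM expected count, TPM and FPKM. A merged table holds TPM times the number of transcripts, which the authors deposited as a score, and was used only to pair identifiers with symbols. Expected counts were rounded. The members and lists were chosen with earlier results of these data known.

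edgeR 4.0.16 (R 4.3.3) was fitted to all 12 libraries with TMM factors, the filterByExpr filter, a mean per group and quasi-likelihood tests, with Benjamini-Hochberg adjustment over 15706 genes. The fit was tested on simulated data. Replicates are separate cultures. By a sample sheet of the study, Igfbp2 replicates 5 to 8 pair in order with vehicle replicates 1 to 4, each pair from 1 animal, and this pairing was the block. The GEO numbers do not show it, the deviations of the 4 pairs from their group means correlated at only -0.139 to 0.136, and every pair differed in Y-linked expression. Full values are given for the members with the largest and smallest change per role, those not called against WT and those called with Igfbp2, and for related lists the largest and smallest, with every gene of the other kinetochore list. Some genes of the marker and related lists are not reported here, and counts, medians and sums leave them out. Alternatives were library totals, DESeq2 1.42.0, other filters, 2 groups only, the preparation as a block, limma 3.58.1 on log2(TPM + 1) and log2(TPM + 0.1), TPM rescaled without the 100 most abundant genes, Tukey's comparisons of the 3 groups on TPM, stricter thresholds and each library left out. FPKM, which the authors also deposited, was not used here. RSEM had split reads of 23 members with other features in at least 1 library, and 13 members share exon bases with a gene on the other strand.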

Additional observations from a re-analysis of the deposited data

Results flagged for a closer look

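Within groups of 4 libraries, 5 of 129 checks (43 genes in 3 groups) found 1 library far from the other 3 by Dixon's criterion, and chance gives about 1 in 20. Cenpc1 was lower in WT replicate 12, at 21.9 CPM, than in the other 3 WT libraries, at 26.0 to 26.2 CPM. Mad2l1 was higher in vehicle-treated replicate 4, at 51.8 CPM against 45 to 45.6 CPM, and lower in Igfbp2-treated replicate 6, at 38.4 CPM against 40.7 to 41.1 CPM. Cenpl was lower in vehicle-treated replicate 3, at 16.9 CPM against 18.4 to 18.6 CPM. Ndc80 was higher in Igfbp2-treated replicate 7, at 27.3 CPM against 23.3 to 23.9 CPM, which still lay below every vehicle-treated library.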

How the results depend on the processing

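In vehicle-treated Ncf1-/- against WT NSCs all 42 members stayed called when any 1 library was left out, with 8254 to 9406 genes called and member medians from 1.86 to 2.13. Tukey's comparisons on TPM called 4329 genes at a member median of 1.69 (1.686), limma on log2(TPM + 1) gave a median of 1.69 (1.692), rescaled TPM gave 1.79 (1.785), and asking also for a log2 fold change of 1 or more left 3246 genes. Over all members and alternatives, 976 values kept their direction and side of the threshold, 9 lost the call and 1, that of Mis12 with library totals, gained it.

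Igfbp2 against vehicle depended most on the setting. Leaving out a library gave 2294 to 4872 genes, 4 to 12 members and medians from -0.344 to -0.215. Library totals called 5906 genes and 29 members at a median of -0.56 (-0.555), limma on log2(TPM + 1) 6354 genes and 38 members at -0.66, limma on log2(TPM + 0.1) 6519 genes and 38 members at -0.72, and Tukey's comparisons 2149 genes and 24 members at -0.65. The preparation as a replicate block called 26 members, as did the fit to these 2 groups alone. An adjusted p under 0.01 left 1514 genes and 2 members, and a log2 fold change of 1 or more left 914 genes and 0 members. Higher against lower calls were 2238 and 1685 by the main test, 648 and 5258 with library totals and 200 and 6154 with log2(TPM + 1). Members near 0 changed sign, and of the negative values below, those of Cenpm with both limma fits on unrescaled TPM and with Tukey, and of Zwint with both limma fits, passed the threshold. In the order library totals, mean of at least 5 CPM, 2 groups, block, log2(TPM + 1), log2(TPM + 0.1), rescaled TPM and Tukey, Cenpm was at -0.245, -0.037, -0.024, -0.021, -0.427, -0.463, -0.098 and -0.416, and Zwint at -0.251, -0.042, -0.028, -0.031, -0.45, -0.456, -0.089 and -0.428. Without the 2-group and block fits, Cenpf was at -0.214, -0.001, -0.345, -0.379, -0.015 and -0.316, and, also without the 5 CPM filter, Cenpw at -0.188, -0.317, -0.39, -0.032 and -0.304. When 1 library was left out the values ran from -0.072 to 0.24 for Cenpf, -0.056 to 0.086 for Cenpm, -0.07 to 0.062 for Zwint, -0.163 to 0.151 for Cenpe, -0.104 to 0.021 for Plk1, -0.109 to 0.027 for Ska2 and -0.117 to 0.063 for Tpx2.

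In Igfbp2-treated Ncf1-/- against WT NSCs leaving out a library gave 9192 to 10031 genes, 39 to 41 members and medians from 1.52 (1.518) to 1.84. Tukey's comparisons called 5592 genes and 20 members at a median of 1.11 (1.108), a log2 fold change of 1 or more left 3848 genes, and the medians were 1.11 with log2(TPM + 1), 1.28 with log2(TPM + 0.1) and 1.47 with rescaled TPM. In the order log2(TPM + 1), log2(TPM + 0.1) and Tukey, Cenpt was at -0.092, -0.105 and -0.089, Dsn1 at -0.049, -0.054 and -0.057, Cenpc1 at -0.251, -0.29 and -0.244 (-0.073 with rescaled TPM), and Cenpo at -0.002 and -0.009 in the first 2. Mis12 was at 0.013 with rescaled TPM. The cause of these shifts was not tested.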
